A study of Mus musculus with 21 samples.

Results

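Genes that mark microglia and other tissue macrophages were followed through the transcriptomes and translatomes of mouse embryos at embryonic day 14.5. The 10 genes, Csf1r, Cx3cr1, Ptprc, Aif1, Fcer1g, Tyrobp, Trem2, C1qa, C1qb and C1qc, were picked by symbol, and each had 1 row among the 23827 rows of every library. A translatome is the set of mRNAs recovered with ribosomes carrying mCherry-tagged Rpl10a, a protein of the large ribosomal subunit, and a transcriptome is the total RNA of the same tissue. There were 7 groups of 3 libraries, 21 in all. Embryos labelled Sox2Cre+/-;Gt(ROSA)26Sor-mCherry-Rpl10a+/-, in which the Cre acts in cells derived from the epiblast, gave the brain and kidney transcriptomes and the brain and kidney translatomes. Embryos carrying Cdh5CreERT2+/- with the same reporter allele received the inducer tamoxifen through the mother and gave the brain and kidney endothelial cell (EC) translatomes, and embryos carrying Emx1Cre+/- with it gave the Emx1 translatome, from the dorsal telencephalic lineage. The reporter is driven by the CAGGS promoter once Cre has acted, it came from 1 targeted stem cell clone, and a sample held tissue of 1 or 2 embryos. Brain here means forebrain with part of the diencephalon.

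Microglia are the resident macrophages of the brain. They descend from early yolk sac progenitors, enter the neural tissue of the embryo along with its vessels, and depend on the receptor Csf1r and on the transcription factor PU.1, encoded by Spi1. Macrophages of the fetal kidney share most of their defining genes with them. Csf1r is the receptor of the growth factors Csf1 and Il34, and Cx3cr1 is the receptor of the chemokine Cx3cl1. Ptprc encodes CD45, a phosphatase on the surface of nearly all blood leukocytes. Tyrobp and Fcer1g encode small membrane adaptors that signal through the tyrosine kinase Syk, and Trem2 is a lipid-sensing receptor that signals through Tyrobp. Aif1 encodes the calcium-binding protein Iba1. C1qa, C1qb and C1qc encode the chains of C1q, the recognition part of the classical complement pathway.

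Endothelial and neural cells are not known as sources of these mRNAs, and the comparisons ask how strongly the mRNAs were associated with ribosomes in each organ and how much of them was left in the EC and Emx1 translatomes. Whether what was left came from untagged RNA or from macrophages that carried the tag was not tested. In bulk tissue such as this, fewer macrophages and less RNA per macrophage cannot be told apart.

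Libraries held between 21760652 and 79231692 reads, and all 10 genes had at least 5 reads in every library. The labels were checked with marker genes of other cell types. All 13 endothelial genes were higher in the brain EC translatome than in the brain translatome and in the kidney EC than in the kidney translatome, and all 10 subpallial genes, which mark ventral forebrain outside the Emx1 domain, were lower in the Emx1 translatome. The EC and Emx1 libraries were sequenced in other runs than the whole-organ translatomes, so run and group cannot be told apart in comparisons between them. The libraries of a group are described as biological replicates. Whether they came from separate litters is not given in the sources used here, and p-values measure the spread between these libraries.

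Levels are given as RPKM, reads on a gene scaled by the length of its mRNA and by all reads on mRNA rows of the library, with the 3 libraries of a group in the order of their replicate numbers. Differences are log2 fold changes with their standard errors from edgeR's quasi-likelihood test on the read counts, scaled by TMM, which sets the bulk of genes level between libraries. A gene was called when its p-value, adjusted over all rows by the method of Benjamini and Hochberg, was under 0.001. In the EC comparisons the RPKM scale and the TMM scale differ, and a ratio of RPKM values lies below the fold change of the same gene.

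All genes were measured in whole forebrain at a low to moderate level. Csf1r had 4.79, 5.65 and 5.58 RPKM in the brain transcriptome and 4.91, 3.74 and 5.39 RPKM in the kidney transcriptome. Cx3cr1 had 3.88, 4.04 and 4.36 RPKM in brain and 3.65, 3.14 and 3.23 RPKM in kidney. The ranges of Csf1r overlapped between the organs and those of Cx3cr1 did not.

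Ptprc was the member whose level differed most between the organs. It had 0.377, 0.413 and 0.306 RPKM in the brain transcriptome, from 82 to 130 reads, and 1.20, 1.32 and 1.34 RPKM in the kidney transcriptome, from 232 to 339 reads. Every kidney library lay above every brain library, with a log2 fold change of 1.61 ± 0.14 (SE; adjusted p = 1.5e-06, n = 3 per group, edgeR). It was the only one of the 10 genes called higher in kidney, where 26.3% of all rows were called higher, and Cx3cr1 was the only one called lower (log2 fold change -0.48 ± 0.09, adjusted p = 0.00047), where 27.2% of all rows were. The Cx3cr1 call was lost when brain transcriptome replicate 2 or 3 or kidney transcriptome replicate 2 or 3 was left out, and without kidney transcriptome replicate 1 Trem2 was called lower as well (-1.08). Trem2 had 1.99, 2.02 and 1.87 RPKM in brain and 1.52, 1.14 and 0.975 RPKM in kidney, with no overlap, and an adjusted p of 0.0020 that did not pass.

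The 3 C1q mRNAs were present in near equal amounts. C1qa had 4.80, 7.22 and 5.91 RPKM in the brain transcriptome, C1qb had 5.55, 7.03 and 6.05 RPKM, and C1qc had 4.75, 6.24 and 5.51 RPKM. All 3 genes were lowest in replicate 1 and highest in replicate 2. As shares of their summed RPKM, C1qa made up 33.6% ± 1.7 (SD, n = 3), C1qb 35.2% ± 1.3 and C1qc 31.2% ± 0.6. In the kidney transcriptome the share of C1qa was 27.2% ± 2.3, and the ranges of the organs, 31.8 to 35.3% and 25.7 to 29.9%, did not overlap.

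Of 17 other microglia genes 7 were called lower, 2 higher and 8 not at all in the kidney against the brain transcriptome. Of all rows 27.2% were called lower and 26.3% higher. Among markers that separate microglia from other macrophages, P2ry12, a purinergic receptor of microglia, was lower in the kidney than in the brain transcriptome (0.28 against 1.54 RPKM, log2 fold change -2.59, adjusted p = 5.6e-07). Mrc1, the mannose receptor of perivascular and tissue macrophages, had a mean of 4.18 RPKM in the brain and 4.76 RPKM in the kidney transcriptome. Tmem119, which marks microglia in the adult brain, was higher in kidney (13.9 against 1.04 RPKM, log2 fold change 3.54, adjusted p = 4.7e-11), as was Olfml3 (47.9 against 3.62 RPKM, log2 fold change 3.53, adjusted p = 2.6e-09), and both are also made by cells other than macrophages. Of 10 lymphoid genes 3 were called higher in the kidney than in the brain transcriptome, 0 lower and 7 not at all. The T cell gene Cd3e had a mean of at most 0.068 RPKM in every group. Others of that list stood higher, with means in the kidney transcriptome of 5.90 RPKM for Lck and 2.72 RPKM for Cd79b.

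**Figure D1:**
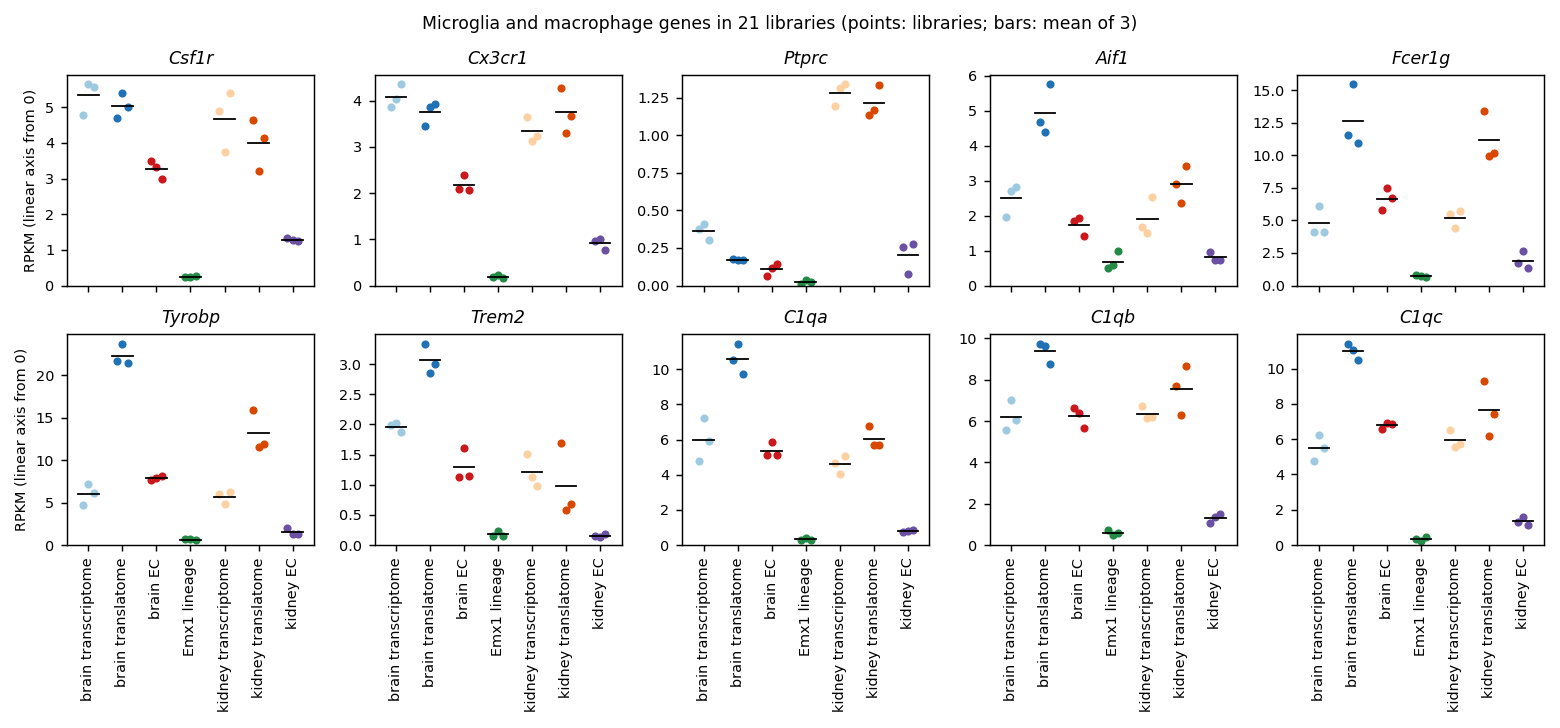
RPKM of each of the 10 genes (vertical axis, linear from 0, 1 panel per gene) in the 7 groups; points are libraries and bars the mean of 3. The Emx1 lineage has the lowest mean in every panel except Trem2, and Tyrobp, Fcer1g, Aif1, Trem2 and the C1q genes stand higher in the brain translatome than in the brain transcriptome.

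The positions of the genes in GRCm38 (GENCODE vM21) put the C1q genes side by side on chromosome 4, all on the minus strand: C1qb at chr4:136880129-136886187, C1qc at chr4:136889804-136893065 and C1qa at chr4:136895917-136898803. Tyrobp lies on chromosome 7 (chr7:30413760-30417585), Fcer1g (chr1:171229572-171234365) and Ptprc (chr1:138062861-138175708) on chromosome 1, and Trem2 (chr17:48346401-48354147) and Aif1 (chr17:35170991-35176068) on chromosome 17. Csf1r on chromosome 18 shares 873 exon bases with Hmgxb3 on the opposite strand, and Cx3cr1 on chromosome 9 shares 78 with an antisense transcript. The library kit does not keep the strand, so reads in those bases cannot be assigned to one gene or the other.

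The genes varied together. Over the 21 libraries, the log2 profile of each gene followed the mean of the other 9, with Pearson's r between 0.949 and 0.985 for C1qb, C1qa, C1qc, Cx3cr1, Csf1r, Tyrobp and Fcer1g, 0.892 for Aif1, 0.868 for Trem2 and 0.529 for Ptprc. These values are a description, since libraries of a group share their tissue and tag. The 10 rows with the profile most like the mean of the genes, out of 14548 rows ranked, were Sfpi1 (the older symbol of Spi1, r = 0.986), Fcgr3 (0.979), Bin2 (0.976), Rac2 (0.975), Ctss (0.972), Emr1 (the older symbol of Adgre1, the macrophage antigen F4/80, 0.972), Lyz2 (0.968), Ms4a6b (0.960), Adap2 (0.958) and Pld4 (0.958). Of the 10, 5 were in the lists of macrophage and leukocyte genes used here.

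Because the genes varied together and with Spi1, the sequence upstream of their starts was searched for GAGGAA or its reverse complement TTCCTC, the core read by PU.1 and by other ETS factors. In the RefSeq promoter table (GRCm38.p6), 7 of the 10 genes had an entry, with 8 windows in all. The 250 bases before the start held the motif in 5 of the 8 windows, against 23.3% of all 32851 windows. These were windows of Ptprc, C1qb, C1qc, Aif1 and Trem2. A match of this length is a description of the letters and not a binding site. The windows of C1qb (chr4:136886201-136886450, minus strand), C1qc (chr4:136892915-136893164, minus strand) and Trem2 (chr17:48346151-48346400, plus strand) are shown 5′ to 3′ because their genes are compared in the results that follow, with the motif in capitals.
C1qb: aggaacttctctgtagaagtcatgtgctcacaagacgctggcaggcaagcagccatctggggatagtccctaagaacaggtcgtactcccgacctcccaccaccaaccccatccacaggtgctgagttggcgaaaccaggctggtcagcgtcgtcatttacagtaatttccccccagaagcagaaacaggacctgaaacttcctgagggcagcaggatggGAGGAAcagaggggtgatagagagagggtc
C1qc: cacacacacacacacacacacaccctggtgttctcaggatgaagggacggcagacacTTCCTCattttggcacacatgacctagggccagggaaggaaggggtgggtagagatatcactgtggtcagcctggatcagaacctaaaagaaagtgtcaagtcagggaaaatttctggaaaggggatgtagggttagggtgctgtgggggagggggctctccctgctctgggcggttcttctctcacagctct
Trem2: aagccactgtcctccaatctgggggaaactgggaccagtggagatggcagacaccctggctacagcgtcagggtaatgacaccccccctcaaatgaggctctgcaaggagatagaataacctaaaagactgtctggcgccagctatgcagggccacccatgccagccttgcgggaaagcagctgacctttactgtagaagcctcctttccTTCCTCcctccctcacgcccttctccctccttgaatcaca
Counted from the starts in the promoter table, the match starts 30 bases before C1qb, 193 bases before C1qc and 40 bases before Trem2. Some of these starts differ from the GENCODE positions given above. On those positions part of the C1qc window, part of the Aif1 window (chr17:35176053-35176302) and all of the Ptprc window (chr1:138175306-138175555) lie inside the gene. The matches of Aif1 and Ptprc then lie inside the gene as well. The C1qc match is then nearer to the start. The extended motif GAGGAAG, found in 10.6% of all windows, was in 2 of the 8 windows of these genes.

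The first comparison asked how strongly the mRNAs were associated with ribosomes, by setting the brain translatome against the brain transcriptome of the same tissue. In forebrain 7 of the 10 genes were higher in the translatome, 1 was lower and 2 were not called, while 18.6% of all 19446 rows tested were called higher and 18.5% lower. The median log2 fold change of the 10 genes was 0.76, against -0.01 for all rows. The adaptors led this group and the long receptor mRNAs did not take part in it.

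Tyrobp rose most. It had 4.78, 7.16 and 6.11 RPKM in the transcriptome and 21.7, 23.7 and 21.4 RPKM in the translatome. The groups were far apart, with a log2 fold change of 1.91 ± 0.13 (adjusted p = 2.3e-08, n = 3 per group, edgeR), or 3.75-fold. Fcer1g had 4.14, 6.10 and 4.10 RPKM in the transcriptome and 11.6, 15.5 and 11.0 RPKM in the translatome. It was the next highest, with a log2 fold change of 1.42 ± 0.17 (adjusted p = 5.4e-06), and both adaptors were highest in replicate 2 of either kind of library.

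The C1q genes rose by unequal amounts. C1qc had 11.4, 11.1 and 10.5 RPKM in the brain translatome, and its log2 fold change was 1.02 ± 0.11 (adjusted p = 2.1e-06). C1qa had 10.5, 11.4 and 9.75 RPKM, and its log2 fold change was 0.84 ± 0.13 (adjusted p = 7.1e-05). C1qb, the one with the highest share in the transcriptome, had 9.74, 9.65 and 8.74 RPKM there and the smallest rise of the 3 (0.62 ± 0.11, adjusted p = 0.0002). The share of C1qb in the summed C1q RPKM was 34.3 to 36.8% before and 30.0 to 30.8% after ribosome capture, without overlap, and that of C1qc was 30.5 to 31.5% and 34.4 to 36.2%.

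Aif1 had 1.97, 2.71 and 2.81 RPKM in the brain transcriptome and 4.68, 4.38 and 5.77 RPKM in the translatome, with a log2 fold change of 1.00 ± 0.17 (adjusted p = 0.00013). Trem2 had 3.34, 2.86 and 3.00 RPKM in the translatome, all above its 3 transcriptome libraries, and rose by 0.68 ± 0.14 (adjusted p = 0.00069). Both rose less than the adaptors. The Trem2 call was lost whenever any one of the 6 libraries was left out, and without brain translatome replicate 1 those of Aif1, C1qa, C1qb and Ptprc were lost as well, which left 3 genes called higher and none lower. With all 6 libraries and the replicate as a block, these 5 genes were called in edgeR (Trem2 adjusted p = 2.6e-05).

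Csf1r, Cx3cr1 and Ptprc did not rise. Csf1r had 4.69, 5.41 and 5.01 RPKM in the brain translatome and its groups overlapped (log2 fold change -0.06 ± 0.09, adjusted p = 0.59). Cx3cr1 had 3.45, 3.87 and 3.92 RPKM in it and overlapped too (-0.10 ± 0.09, adjusted p = 0.36). Ptprc fell, from the 0.306 to 0.413 RPKM given above to 0.177, 0.168 and 0.170 RPKM in the translatome, from 26 to 42 reads, with a log2 fold change of -1.15 ± 0.19 (adjusted p = 0.00014). As a result the ratio of Tyrobp to Csf1r RPKM went from 1.12 ± 0.14 (SD, n = 3) in the brain transcriptome to 4.43 ± 0.18 in the brain translatome, with no overlap.

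The shorter mRNAs had the higher values in this comparison. Lengths were worked out from the deposited reads and RPKM. By these Tyrobp has 571 bases, Fcer1g 663 and Aif1 882, the C1q genes and Trem2 1062 to 1097, and Cx3cr1, Csf1r and Ptprc 3783 to 5197. Length moved with the fold change over all mRNAs, too. Among 1193 mRNAs of 500 to 1200 bases with over 1 RPKM in the brain transcriptome the median log2 fold change was 0.84 (quartiles 0.51 and 1.13), and among 2944 mRNAs of 3500 to 5500 bases it was -0.18. Read against mRNAs of their length, Aif1, the C1q genes and Trem2 lay between the quartiles. Fcer1g was exceeded by 5.95% of the short mRNAs and Tyrobp by none, and 5.2% of the long ones lay below Ptprc. In kidney 2.97% of the short mRNAs exceeded Tyrobp and 6.84% exceeded Fcer1g, and 50.8% of the long ones lay below Ptprc. These length bands were chosen after the values had been seen, and the part of length in the differences was not tested.

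**Figure D2:**
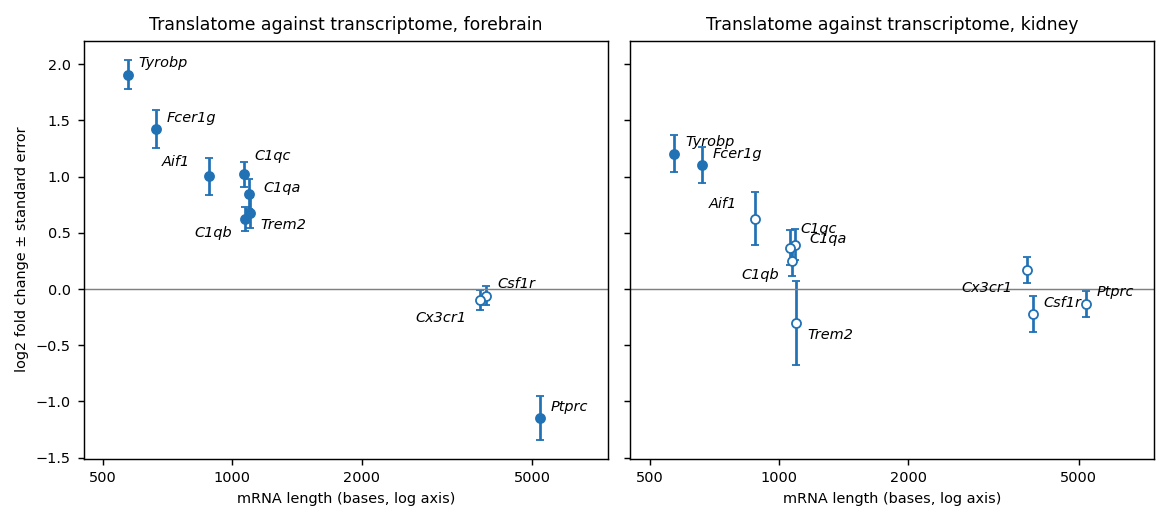
Log2 fold change of translatome against transcriptome (vertical axis, points with standard error, n = 3 libraries per group) against mRNA length in bases (horizontal log axis) in forebrain and kidney; filled points have an adjusted p under 0.001. In forebrain the values run from 1.91 for Tyrobp, the shortest mRNA, to -1.15 for Ptprc, the longest, and in kidney Tyrobp and Fcer1g alone are filled.

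In kidney the same comparison gave fewer calls. There 2 of the 10 genes were higher in the translatome, none was lower and 8 were not called, while 14.9% of all rows were called higher and 15.8% lower. Tyrobp had 6.01, 4.85 and 6.30 RPKM in the kidney transcriptome and 16.0, 11.6 and 11.9 RPKM in the translatome (log2 fold change 1.21 ± 0.17, adjusted p = 0.00012). Fcer1g had 5.47, 4.40 and 5.76 RPKM and 13.4, 9.91 and 10.2 RPKM (1.10 ± 0.16, adjusted p = 0.0002). Neither overlapped between the groups, and both were lowest in replicate 2 of the transcriptome and of the translatome.

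Same-numbered libraries of the 2 kinds came from the same tissue, and with the replicate as a block 5 genes were called higher in kidney: Tyrobp, Fcer1g, Aif1 (0.63, adjusted p = 0.00049), C1qa (0.41, adjusted p = 0.00023) and C1qc (0.37, adjusted p = 0.00022). In that fit the spread of each gene was set to the common trend, with no allowance for genes that vary more. Trem2 had 1.69, 0.584 and 0.678 RPKM in the kidney translatome, where 1 library with 45 reads stood above the others with 15 and 16, and its log2 fold change was -0.30 ± 0.37 (adjusted p = 0.54). Ptprc had 1.14, 1.17 and 1.33 RPKM in the kidney translatome against 1.20 to 1.34 RPKM in the transcriptome, and was not called (-0.13 ± 0.11, adjusted p = 0.38). Unlike in forebrain, its groups overlapped. Csf1r (-0.22 ± 0.16, adjusted p = 0.29) and Cx3cr1 (0.17 ± 0.12, adjusted p = 0.27) were not called either.

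The difference between the organs was tested as an interaction, and none of the 10 genes was called in edgeR, where 4.12% of all rows were called higher in kidney and 2.35% lower. At an unadjusted p under 0.05 edgeR gave 1 gene higher and 4 lower, and DESeq2 called 1. Ptprc had the largest difference, 1.03 ± 0.21 in favour of kidney, with an adjusted p of 0.0021. It was called by DESeq2 (1.04), without brain transcriptome replicate 3 (1.17) and with the replicate block (adjusted p = 6.4e-05). The block also brought out Tyrobp (-0.68, adjusted p = 0.00054) and C1qc (-0.64, adjusted p = 0.00027), which rose less in kidney.

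Other genes of the macrophage programme were looked at in the same way. Of 17 other microglia genes 3 were higher and 1 was lower in the brain translatome, and of 13 tissue macrophage genes 1 and 1. Of all rows 18.6% were called higher and 18.5% lower, so neither list rose more often than all rows did. Spi1 had 1.60 RPKM in the transcriptome and 3.34 RPKM in the translatome (log2 fold change 1.08, adjusted p = 5.9e-05) and the Fc receptor Fcgr3 had 1.99 and 4.47 RPKM (1.18, adjusted p = 1.9e-05). The chemokine Pf4 rose too (1.59, adjusted p = 2.0e-07). Cd68, a lysosomal glycoprotein of macrophages, fell by 1.08 (adjusted p = 2.2e-05), and among 10 partners of the complement system Cfp, or properdin, fell by 3.45 (adjusted p = 4.3e-11). Of the 9 erythroid genes measured in these libraries 6 fell in brain and none rose, with a median of -2.42.

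The second comparison asked how much of the macrophage mRNA was left in the EC translatomes. In the brain EC translatome 4 of the 10 genes were lower than in the brain translatome, none was higher and 6 were not called, while 21.4% of all rows were called lower and 24.8% higher. The median log2 fold change of the 10 genes was -0.56, against -0.01 for all rows. All 10 genes had every EC library below every brain translatome library in RPKM.

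Tyrobp had 7.72, 7.96 and 8.12 RPKM in the brain EC translatome, against 21.4 to 23.7 RPKM in the brain translatome. Its libraries agreed closely, with a log2 fold change of -1.20 ± 0.10 (adjusted p = 3e-07, n = 3 per group, edgeR). Aif1 had 1.84, 1.93 and 1.41 RPKM (-1.22 ± 0.18, adjusted p = 3.9e-05). Trem2 had 1.13, 1.60 and 1.15 RPKM (-0.96 ± 0.18, adjusted p = 0.0004) and C1qa had 5.10, 5.85 and 5.12 RPKM (-0.69 ± 0.11, adjusted p = 0.0001). These were the 4 called, and without brain translatome replicate 1 the calls of C1qa and Trem2 were lost, those of Trem2 also without brain translatome replicate 3 or brain EC replicate 1 or 3.

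C1qb, Csf1r and C1qc were among the genes closest to the whole-forebrain level, as was Ptprc on few reads. C1qb had 6.62, 6.40 and 5.66 RPKM in the brain EC translatome, with a log2 fold change of -0.30 ± 0.11 (adjusted p = 0.026). Csf1r had 3.48, 3.33 and 2.99 RPKM (-0.33 ± 0.09, adjusted p = 0.0071). C1qc had 6.58, 6.89 and 6.86 RPKM (-0.41 ± 0.10, adjusted p = 0.0025). None of the 3 was called, although none overlapped in RPKM. Cx3cr1, with 2.08, 2.40 and 2.06 RPKM (-0.49, adjusted p = 0.0011), and Fcer1g, with 5.81, 7.47 and 6.69 RPKM (-0.64, adjusted p = 0.0024), were called once brain EC replicate 2 was left out, which made 6. Ptprc rested on 21 to 42 reads (-0.38, adjusted p = 0.28).

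The count depended on the scaling. With total counts in place of TMM 9 of the 10 genes were called lower. Of the 19103 rows tested 6002 were then called lower, against 4084 with TMM. Of all calls 36.1% were then higher in the EC translatome, against 53.7% with TMM. DESeq2 called 7.

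As a share of the mean RPKM in the brain translatome, the level left in the brain EC translatome had a median of 55.4% over the 10 genes and ran from 35.0% for Aif1 to 66.4% for C1qb. Genes of neurons left a smaller share in the same libraries, with a median of 21.1% over 10 genes (10.4 to 73.6%), and subpallial genes left 20.3% (12.3 to 38.4%). Tubb3, a neuronal tubulin, left 22.7% and Dlx2, a transcription factor of interneuron progenitors, 21.1%. Cdh5, the endothelial cadherin whose promoter drives the Cre, stood at 2230%. Erythroid genes left a median of 75.1%. On the TMM scale the median of the 10 genes was 67.7%. The 10 genes thus lay between the neural genes and the erythroid genes in this measure. As medians of RPKM shares, pericyte genes left 44.7% (18.2 to 488%). Other microglia genes left 66.6% over 12 genes (41.3 to 699%) and tissue macrophage genes 92.0% over 8 (40.1 to 741%). This is a description and was not tested.

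The order of the genes within the brain EC libraries was not that of the brain translatome. The ratio of Tyrobp to Csf1r RPKM was 2.44 ± 0.25 (SD, n = 3) in the EC translatome, between the 1.12 of the transcriptome and the 4.43 of the translatome, and the ranges of the 3 groups did not overlap. Trem2 to Csf1r stood at 0.40 ± 0.08, against 0.37 ± 0.04 in the transcriptome and 0.61 ± 0.09 in the translatome. The share of C1qa among the C1q genes was 27.9 to 30.6% in the EC translatome and 33.2 to 35.6% in the brain translatome, without overlap.

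Against the whole organ, each of the 10 log2 fold changes was lower in kidney EC than in brain EC, and the test of that difference is given below. Of the 10 genes 9 were lower in the kidney EC than in the kidney translatome, none was higher and 1, Trem2, was not called, while 15.0% of all rows were called lower and 16.7% higher. The median log2 fold change was -2.17, against -0.04 for all rows. Every gene had its 3 EC libraries below its 3 kidney translatome libraries.

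Tyrobp had 1.99, 1.35 and 1.33 RPKM in the kidney EC translatome, with a log2 fold change of -2.71 ± 0.22 (adjusted p = 1.6e-06, n = 3 per group, edgeR). Fcer1g had 1.75, 2.65 and 1.33 RPKM there (-2.21 ± 0.24, adjusted p = 1.5e-05). Both lay far below the kidney translatome. C1qa had 0.750, 0.790 and 0.876 RPKM (-2.55 ± 0.18, adjusted p = 5.4e-07). C1qb had 1.08, 1.35 and 1.51 RPKM (-2.17 ± 0.19, adjusted p = 3e-06), and C1qc had 1.33, 1.56 and 1.13 RPKM (-2.16 ± 0.20, adjusted p = 4.3e-06). All 3 C1q genes were below every library of the other groups but the Emx1 translatome.

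Csf1r had 1.32, 1.27 and 1.24 RPKM in the kidney EC translatome and fell least (-1.30 ± 0.14, adjusted p = 1.7e-05). Cx3cr1 had 0.955, 1.00 and 0.777 RPKM (-1.69 ± 0.15, adjusted p = 2.4e-06). The replicates of these receptors lay close together, whereas those of Ptprc did not: it had 0.257, 0.0781 and 0.275 RPKM, with 13 reads in replicate 2 and 58 and 63 in the others (-2.16 ± 0.33, adjusted p = 0.00022). Aif1 had 0.953, 0.733 and 0.723 RPKM (-1.48 ± 0.25, adjusted p = 0.00043). Its call was lost without kidney translatome replicate 1 or 3 or kidney EC replicate 2 or 3, and that of Ptprc without kidney translatome replicate 3. Trem2 had 5 to 8 reads in the kidney EC libraries, and its log2 fold change of -2.30 ± 0.50 had an adjusted p of 0.0024. Without kidney translatome replicate 1, its value was -1.64.

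The share left in the kidney EC translatome had a median of 17.2% of the kidney translatome, from 11.8% for Tyrobp to 31.8% for Csf1r, or 22.0% on the TMM scale. Here the 10 genes were near the epithelial genes of the same organ. Other microglia genes left a median of 44.3% (13.4 to 141%) and tissue macrophage genes 54.9% (19.9 to 402%), so both lists spread widely around their medians. Nephron and ureteric genes left a median of 18.4% (7.92 to 36.6%), with Six2, of nephron progenitors, at 11.9%, and kidney stromal genes left 34.9%. Cdh5 stood at 700%. With total counts in place of TMM 29.9% of all rows were called lower and 8.26% higher.

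**Figure D3:**
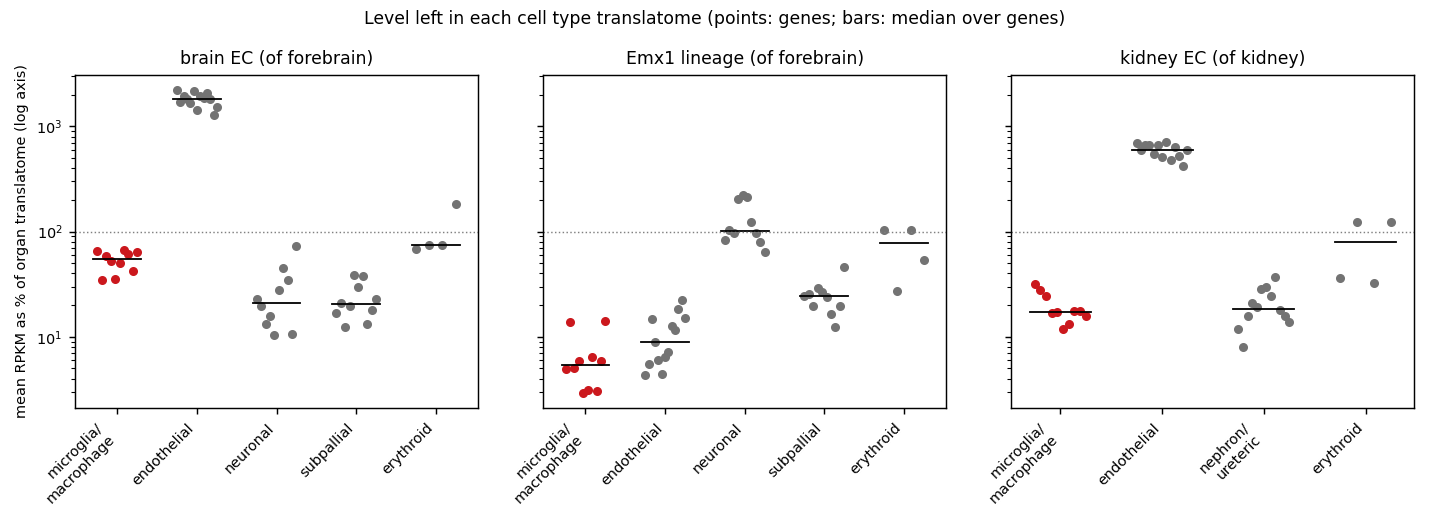
Mean RPKM in each cell type translatome as a percentage of that in the whole-organ translatome (vertical log axis; the dotted line is 100%) for the 10 genes in red and marker lists of other cell types in grey; points are genes and bars the median. The red points have medians of 55.4% in brain EC, 5.45% in the Emx1 lineage and 17.2% in kidney EC, and only in brain EC does their median lie above that of the organ's own neural or epithelial genes.

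Whether the brain and kidney EC libraries differed in this was tested as an interaction, the EC against organ difference in kidney minus that in brain. Of the 10 genes 7 had a lower value in kidney and none a higher one, while 16.5% of all rows were called lower and 8.6% higher. The median was -1.57 for the 10 genes and -0.16 for all rows. C1qb (-1.89 ± 0.21, adjusted p = 1.1e-06) and C1qa (-1.88 ± 0.19, adjusted p = 4.7e-07) differed most, and the call of Fcer1g (-1.61 ± 0.29, adjusted p = 0.00025) was lost without brain translatome replicate 1 or 3. Aif1 (-0.28 ± 0.30, adjusted p = 0.51), Trem2 (-1.37, adjusted p = 0.040, and -0.71 without kidney translatome replicate 1) and Ptprc (-1.81, adjusted p = 0.0068) were not called. The 13 endothelial genes were all called in the same direction, with a median of -1.51, so their enrichment over the whole organ differed as well. In the kidney against the brain transcriptome 12 of the 13 were called higher, with a median of 1.41, where 26.3% of all rows were. In kidney EC against brain EC 6 were lower, 1 was higher and 6 were not called, with a median of -0.30. The part of these differences in the macrophage values was not tested.

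Set directly against each other, the kidney EC translatome was lower than the brain EC translatome in 8 of the 10 genes, with 20.1% of all rows called lower and 16.9% higher. Trem2 had the largest difference (log2 fold change -3.08 ± 0.31, adjusted p = 7.3e-06), followed by C1qa (-2.77 ± 0.16, adjusted p = 1e-07). Aif1 was not called (-1.14, adjusted p = 0.0016). Ptprc overlapped and ran the other way (0.95 ± 0.45, adjusted p = 0.094).

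**Figure D4:**
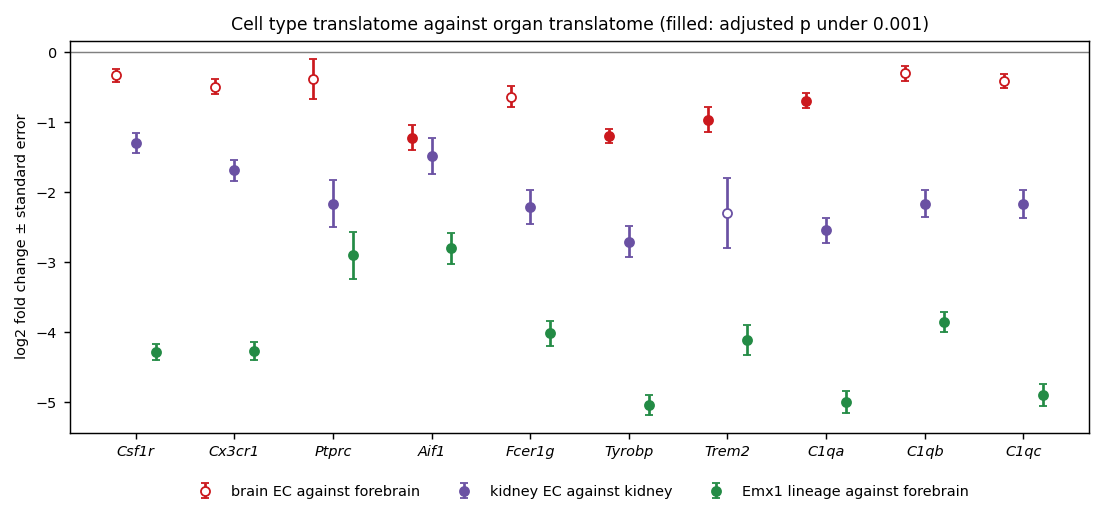
Log2 fold change with standard error (vertical axis, n = 3 libraries per group) of each of the 10 genes in the brain EC, kidney EC and Emx1 translatomes against the translatome of the whole organ; filled points have an adjusted p under 0.001. Brain EC values lie between -0.30 and -1.22, kidney EC values between -1.30 and -2.71 and Emx1 values between -2.80 and -5.04, and the 3 do not cross for any gene.

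The third comparison set the Emx1 translatome, of cells that descend from dorsal telencephalic progenitors, against the brain translatome. All 10 genes were lower and none was higher, while 12.8% of all rows were called lower and 9.2% higher. The median log2 fold change was -4.19, against 0.003 for all rows. All 10 calls held without any one of the 6 libraries.

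Tyrobp had 0.668, 0.724 and 0.567 RPKM in the Emx1 translatome, from 13 to 30 reads, and fell by 5.04 ± 0.14 on the log2 scale (adjusted p = 1.4e-12, n = 3 per group, edgeR), or 32.9-fold. C1qa had 0.314, 0.408 and 0.262 RPKM (-4.99 ± 0.16, adjusted p = 4e-12) and C1qc had 0.347, 0.239 and 0.430 RPKM (-4.90 ± 0.15, adjusted p = 4.3e-12). Csf1r had 0.247, 0.236 and 0.258 RPKM (-4.28 ± 0.11, adjusted p = 8.4e-13). In each of these genes the highest Emx1 library was far below the lowest brain translatome library. Cx3cr1 had 0.188, 0.218 and 0.161 RPKM (-4.27 ± 0.13) and Fcer1g 0.804, 0.766 and 0.660 RPKM (-4.02 ± 0.18). C1qb stood higher than the other C1q genes, with 0.724, 0.504 and 0.569 RPKM (-3.85 ± 0.14), and made up 47.1% ± 4.5 of the summed C1q RPKM from 17 to 61 reads.

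Aif1 was left at the highest level relative to the organ among the genes with over 1 RPKM, with 0.490, 0.576 and 0.992 RPKM and 13.9% of the brain translatome (-2.80 ± 0.22, adjusted p = 1.1e-07). Its replicate 3 stood above the others. Ptprc had 5, 6 and 7 reads (-2.90 ± 0.34, adjusted p = 6.9e-06) and Trem2 8 to 13 reads (-4.11 ± 0.21, adjusted p = 8.7e-10). Over the 10 genes the share left had a median of 5.45%, from 2.93% for Tyrobp to 14.1% for Ptprc.

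Other genes from outside the Emx1 lineage left shares of the same order or more. Endothelial genes left a median of 8.88%, pericyte genes 17.1% and subpallial genes 24.2%, while erythroid genes left 78.8% and the embryonic globin Hbb-y 103%. Neuronal genes stood at 100% and Tubb3 at 82.6%. P2ry12 left 7.19% and Mrc1 4.61%. Of the other microglia genes 16 of 17 fell and of the tissue macrophage genes 12 of 13, with medians of -3.47 and -4.16, and none rose. Spi1 had 0.11 RPKM (-4.74, adjusted p = 1.7e-10), Ctss, a lysosomal protease, 0.22 RPKM (-4.87, adjusted p = 8.4e-12) and Lyve1, of tissue macrophages and lymphatic vessels, 0.17 RPKM (-4.79, adjusted p = 1.7e-11).

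Against the Emx1 translatome the brain EC translatome was higher in all 10 genes, with 25.9% of all rows called higher and 25.2% lower. The median log2 fold change was 3.64. C1qc (4.47 ± 0.17, adjusted p = 2.9e-10) and C1qa (4.28 ± 0.18, adjusted p = 6.4e-10) differed most and Aif1 least (1.55 ± 0.27, adjusted p = 0.00025). The Aif1 call was lost without brain EC replicate 1 or Emx1 replicate 1 or 2, and that of Ptprc without brain EC replicate 3 or Emx1 replicate 1, so that 8 to 10 calls were left. This comparison shares its libraries with those against the whole forebrain.

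Summed over the 10 genes, the level was 37.0 to 48.6 RPKM in the brain transcriptome, 79.2 to 88.0 RPKM in the brain translatome, 40.2 to 43.9 RPKM in brain EC and 3.94 to 4.08 RPKM in the Emx1 lineage. In kidney it was 35.8 to 42.5 RPKM in the transcriptome, 50.3 to 67.8 RPKM in the translatome and 9.37 to 10.9 RPKM in EC. The brain transcriptome, the kidney transcriptome and brain EC overlapped in this sum, and each of the other 4 groups stood apart. Over the same groups the summed neuronal genes ran from 3144 to 3166 RPKM in the brain translatome, 525 to 664 RPKM in brain EC and 3183 to 3415 RPKM in the Emx1 lineage, and the summed erythroid genes from 155 to 246 RPKM, 120 to 166 RPKM and 111 to 231 RPKM. The part of carried-over RNA in the macrophage values was not tested.

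Csf1 and Cx3cl1, ligands of Csf1r and Cx3cr1, were higher in both EC translatomes. Csf1, a ligand of Csf1r, had 2.95 RPKM in the brain translatome and 14.4 RPKM in the brain EC translatome (log2 fold change 2.59 ± 0.10, adjusted p = 5.7e-11), and in kidney 4.38 and 6.77 RPKM (1.01 ± 0.10, adjusted p = 5.9e-06). Il34, its other ligand, had 1.16 and 1.19 RPKM in forebrain and was not called (0.35 ± 0.22, adjusted p = 0.20), nor was it in kidney, with 0.43 and 0.19 RPKM (-0.85 ± 0.39, adjusted p = 0.086). Cx3cl1, the ligand of Cx3cr1, had 6.20 and 10.9 RPKM in forebrain (1.10 ± 0.08, adjusted p = 3.6e-08) and 2.39 and 8.92 RPKM in kidney (2.25 ± 0.12, adjusted p = 5.4e-08). In the Emx1 translatome Csf1 (-0.40, adjusted p = 0.0024) and Cx3cl1 (-0.21, adjusted p = 0.026) were not called and Il34 fell by 1.76 (adjusted p = 4.8e-06).

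Some genes often read as myeloid were higher in brain EC, where 24.8% of all rows were called higher and 21.4% lower, and the shares of the lists called higher were near that of all rows. Of 16 genes of ITAM and Fc receptor signalling 5 rose in brain EC and 1 fell. Lyn, a Src family kinase, went from 2.74 to 35.2 RPKM (3.98, adjusted p = 8e-13) and Syk from 1.06 to 10.6 RPKM (3.63, adjusted p = 2.5e-12), while Fcgr3 fell from 4.47 to 2.15 RPKM (-0.77, adjusted p = 0.0006). Of 17 other microglia genes 4 rose and 2 fell. Laptm5, a lysosomal protein of blood cells, went from 8.02 to 56.1 RPKM (3.10, adjusted p = 3.5e-12), and Cd68 (-0.98, adjusted p = 0.0006) and Ctss (-0.95, adjusted p = 1.4e-05) fell. Of 13 tissue macrophage genes 3 rose and 1 fell, led by the scavenger receptor Stab1 (3.18, adjusted p = 8.7e-12), which sinusoidal endothelium also makes. P2ry12 (-0.17, adjusted p = 0.37), Mrc1 (0.09, adjusted p = 0.55) and Spi1 (-0.58, adjusted p = 0.0049) were not called in brain EC.

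In kidney EC 15.0% of all rows were called lower and 16.7% higher. The other microglia genes gave 1 rise and 6 falls there, among them Adgre1, which fell by 2.52 (adjusted p = 4.3e-06). Spi1 fell by 2.36 (adjusted p = 8e-06), Fcgr3 by 2.82 (adjusted p = 1e-06) and Mrc1 by 0.83 (adjusted p = 7.9e-05). Stab1 rose there as well (2.36, adjusted p = 8.6e-10), and Pf4, also a product of megakaryocytes and platelets, rose by 1.59 (adjusted p = 2.2e-06), whereas in brain EC it fell by 0.70 (adjusted p = 0.0004). Among 10 complement partners 4 fell in kidney EC, among them Serping1, the C1 inhibitor, from 25.5 to 5.55 RPKM (-1.84, adjusted p = 1.1e-06), and none was called by edgeR in brain EC, where 3 were higher and 2 lower at an unadjusted p under 0.05 and DESeq2 called 1 lower.

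**Figure D5:**
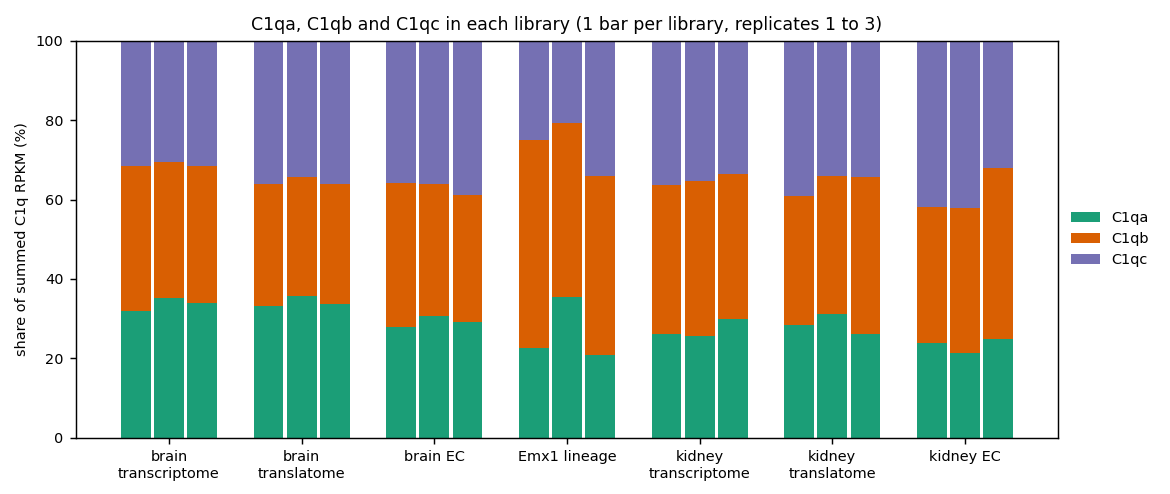
Share of C1qa, C1qb and C1qc in their summed RPKM (vertical axis, percent) in each of the 21 libraries, 1 bar per library in the order of replicates 1 to 3. C1qa makes up 31.8 to 35.3% in the brain transcriptome and 21.3 to 24.9% in kidney EC, and C1qb reaches 43.8 to 52.3% in the Emx1 lineage, where the 3 genes have 8 to 61 reads each.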

How the data were processed

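Ribosome-bound mRNA and total RNA were sequenced in 21 libraries of 7 groups, 3 per group, named from the labels. The authors aligned reads to GRCm38 (mm10) with RUM and deposited, for each RefSeq row, raw read counts and RPKM scaled to the reads on mRNA rows; columns of other samples were absent. The 10 genes and all lists were chosen with earlier results of these data known.

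Counts were tested over the whole table with edgeR 4.0.16 in R 4.3.3 (TMM, quasi-likelihood F test, rows with at least 1 read, Benjamini-Hochberg adjustment, called at adjusted p under 0.001), on the groups of each comparison. The standard error is the log2 fold change divided by the root of F. Profile likeness used log2(RPKM + 0.1) and rows with a group mean of at least 1 RPKM. Scripts were tested on simulated data. Intervals and p-values do not cover amplification error; the counts of each gene set the precision. Alternatives were DESeq2 1.42.0, other scalings, a filter of 10 reads in 3 libraries, 1 fit of all 21 libraries, a replicate block, a threshold of 0.05 and leaving out each library. Same-numbered transcriptome and translatome libraries came from the same tissue and deviated together (r from 0.434 to 0.497 in brain and 0.445 to 0.532 in kidney); same-numbered brain and kidney EC libraries also did (0.14 to 0.202). Beyond the 10 genes, named genes were ligands, defining markers and, per list, up to 2 called rows at either end with at least 1 RPKM. Cd3e, Lck and Cd79b were named after their values were seen. Some genes are not reported here. Alignment settings and tamoxifen timing are not given in the sources used here.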

Additional observations from a re-analysis of the deposited data

Results flagged for a closer look

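The difference between EC and whole organ was not the same in kidney and brain for 7 of the 10 genes, by the interaction test of edgeR's quasi-likelihood fit (n = 3 per group, 12 libraries). As log2 values, kidney minus brain, they were -0.99 for Csf1r (adjusted p = 0.00017), -1.22 for Cx3cr1 (adjusted p = 2.7e-05), -1.61 for Fcer1g (adjusted p = 0.00025) and -1.53 for Tyrobp (adjusted p = 3.8e-05). Of the C1q genes, C1qa had -1.88 (adjusted p = 4.7e-07), C1qb -1.89 (adjusted p = 1.1e-06) and C1qc -1.79 (adjusted p = 2.5e-06). In all 7 genes the fall from organ to EC was larger in kidney. The endothelial genes had a median of -1.51 in the same test (13 of 13 called) and the nephron and ureteric genes -1.99 (8 of 12). The subpallial genes had 1.51, with 1 of 10 called, and summed to only 2.81 to 4.45 RPKM in the kidney translatome. The median of all rows was -0.16. The call of Fcer1g was lost without brain translatome replicate 1 or 3.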

How the results depend on the processing

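No called log2 fold change of the 10 genes changed sign under an alternative. RLE factors and the filter on low counts changed no call of the 10 genes. DESeq2 gave 7 genes and 4467 of 19103 rows lower in brain EC. It gave 1 gene higher in the organ difference in ribosome association, where it called 7.57% of all rows higher and 5.29% lower. In the organ difference in EC against organ it called 13.6% of all rows higher. Total counts moved the median of all rows by -0.30 in brain EC, -0.37 in kidney EC and 0.18 between the transcriptomes. They gave 9 genes and 6002 of 19103 rows lower in brain EC, and 0 genes and 4534 of 19841 rows lower in the kidney transcriptome. In kidney EC they gave 8.26% of all rows higher and 29.9% lower. One fit of all 21 libraries called 0 genes lower in brain ribosome association and 2 lower in the kidney transcriptome.

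With the replicate block, 5 genes were higher in kidney ribosome association (24.0% of all rows higher, 25.1% lower) and 1 higher and 2 lower in the organ difference (9.84% and 7.29%). In the comparisons whose numbers do not pair libraries, the block gave 0 genes lower in the kidney transcriptome, 5.87% of all rows higher in the Emx1 translatome, a call of Fcer1g in brain EC (adjusted p = 0.00073) and none of Aif1 in kidney EC (adjusted p = 0.0011). It changed no call of the 10 genes in the comparison of the EC translatomes.

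At an adjusted p under 0.05, 4 genes were higher in kidney ribosome association, and 1 higher and 2 lower in the organ difference. There were 9 lower in brain EC and 5 lower in the kidney transcriptome. Of all rows, at least the 21.4% and 27.2% called lower at 0.001 in these last comparisons were lower at 0.05 too. All rows then gave 28.1% lower in brain and 24.3% higher and 26.1% lower in kidney ribosome association, 12.6% and 10.5% in its organ difference, 27.6% and 27.9% in kidney EC, 16.1% and 27.0% in the organ difference in EC, 22.5% and 22.6% in Emx1, and 29.1% and 30.5% between EC translatomes.

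Leaving out 1 library gave 3 to 6 genes higher and 0 to 1 lower in brain ribosome association, 0 to 1 higher in the organ difference, 2 to 6 lower in brain EC, 7 to 9 in kidney EC, 6 to 7 in the organ difference in EC, 8 to 10 higher against Emx1 and 0 to 2 lower in the kidney transcriptome. All rows called higher in Emx1 ran from 5.86 to 7.64%, lower in kidney EC from 10.4 to 14.2%, and in the organ difference in ribosome association from 2.93 to 4.05% higher and 1.27 to 2.18% lower. The median share left ran from 52.3 to 59.1% in brain EC, 5.01 to 5.81% in Emx1 and 16.1 to 19.3% in kidney EC, and on the TMM scale it was 67.7% in brain EC and 22.0% in kidney EC. Of the 10 rows most alike, 2 were shared with a minimum of 5 RPKM and 5 with Spearman's rho. The causes were not tested. Counts of 5 to 8 reads limit Ptprc in the Emx1 and Trem2 in the kidney EC libraries.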
